A study of Mus musculus with 2 samples.

Results

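The endothelin genes followed here were the ligands Edn1 and Edn3, the converting enzyme Ece1 and the receptors Ednra and Ednrb. They were chosen by name and matched by gene symbol to the gene list of a single-cell RNA sequencing data set of the mouse eye, in which they were 5 of 32285 genes. All 5 were found. Single cells came from the retinal pigment epithelium (RPE), choroid and sclera of male C57BL/6J mice aged 3 months, dissociated with papain and depleted of dead cells. PBS (control) or doxorubicin at 100 ng/µl (Dox), a DNA-damaging drug used to induce senescence, had been placed under the retina of each eye in a volume of 1 µl, 7 days before collection. The 10 eyes of 5 mice were pooled into 1 library per condition, so no test between the conditions was possible, and every interval given covers counting error only, at 95%. Neither mice nor days of preparation can be told apart from the treatment.

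Endothelins are short peptides cut from longer precursors. Ece1, a membrane metalloprotease, makes the last cut that releases the active peptide. The receptor EDNRA responds to endothelin 1 far more than to endothelin 3 and contracts smooth muscle, while EDNRB binds both alike, works in the endothelium through nitric oxide and is needed, with endothelin 3, for melanocytes and enteric neurons to develop. Ligand and receptor are often made by different cells, so the levels were read cell type by cell type.

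The stretch of coding sequence that encodes the mature peptide is shown for the ligands, because the receptors bind this stretch and because it differs between Edn1 and Edn3. The sequences were taken from the GENCODE vM21 transcripts (GRCm38, the build named mm10 in the labels), from 5′ to 3′ on the plus strand, and capitals mark the codons of the 4 cysteines that form the disulphide bridges. Each stretch holds 63 bases, or 21 codons, and lies in exon 2 of 5.
Edn1, chr13:42303649-42303711: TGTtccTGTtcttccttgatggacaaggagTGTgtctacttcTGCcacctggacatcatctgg
Edn2, chr4:120161951-120162013: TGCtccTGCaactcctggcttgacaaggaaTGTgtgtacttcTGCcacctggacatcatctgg
Edn3, chr2:174761749-174761811: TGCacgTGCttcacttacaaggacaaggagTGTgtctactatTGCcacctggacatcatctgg
Edn1 and Edn3 had the same base at 50 of the 63 positions and the same residue at 15 of 21 codons. Edn1 and Edn2, the third ligand, shared 18 of 21 residues and 53 bases. The last 21 bases, from the final cysteine codon on, were identical in all 3 genes, and the bases that separate Edn3 from Edn1 lay before them.

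The genes lie on different chromosomes of GRCm38. Edn1 (ENSMUSG00000021367) spans chr13:42301476-42307990 and Edn3 (ENSMUSG00000027524) chr2:174760619-174784042, both on the plus strand. Ece1 (ENSMUSG00000057530) spans chr4:137862237-137965229 on the plus strand. Ednra (ENSMUSG00000031616) spans chr8:77663031-77724464 and Ednrb (ENSMUSG00000022122) chr14:103814625-103844402, both on the minus strand.

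After filtering, 20180 control and 15426 Dox cells remained, with a median of 4495 and 4995 unique molecular identifiers (UMIs, each standing for a counted molecule) per cell. The libraries shared 427 cell barcodes, which were 2.12% of the control and 2.77% of the Dox cells. Although the samples are labelled RPE cells, RPE-like cells, with Rpe65, Rlbp1 and the other RPE markers detected, made up 7.21% of control and 9.75% of Dox cells. Fibroblast-like cells were the most numerous, and melanocyte-like, smooth muscle-like, macrophage-like, endothelial-like, NK or T-like, erythrocyte-like and Schwann-like clusters were also named from their markers. Erythrocyte-like droplets had a median of only 794 UMIs in the control and carried RNA of many types. Clusters without a name are called by their leading gene. The cells were clustered without the 5 genes and without the pathway genes described later.

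The total number of UMIs differed widely among the genes. Edn3 had 102007 UMIs in the control and 77558 in the Dox library, and Ece1 had 25495 and 21694. Ednrb had 19895 UMIs in the control and 5352 in Dox, the member whose totals stood farthest apart. Ednra had 3721 and 2913 UMIs. Edn1 was the sparsest, with 251 and 126 UMIs in all.

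**Figure D1:**
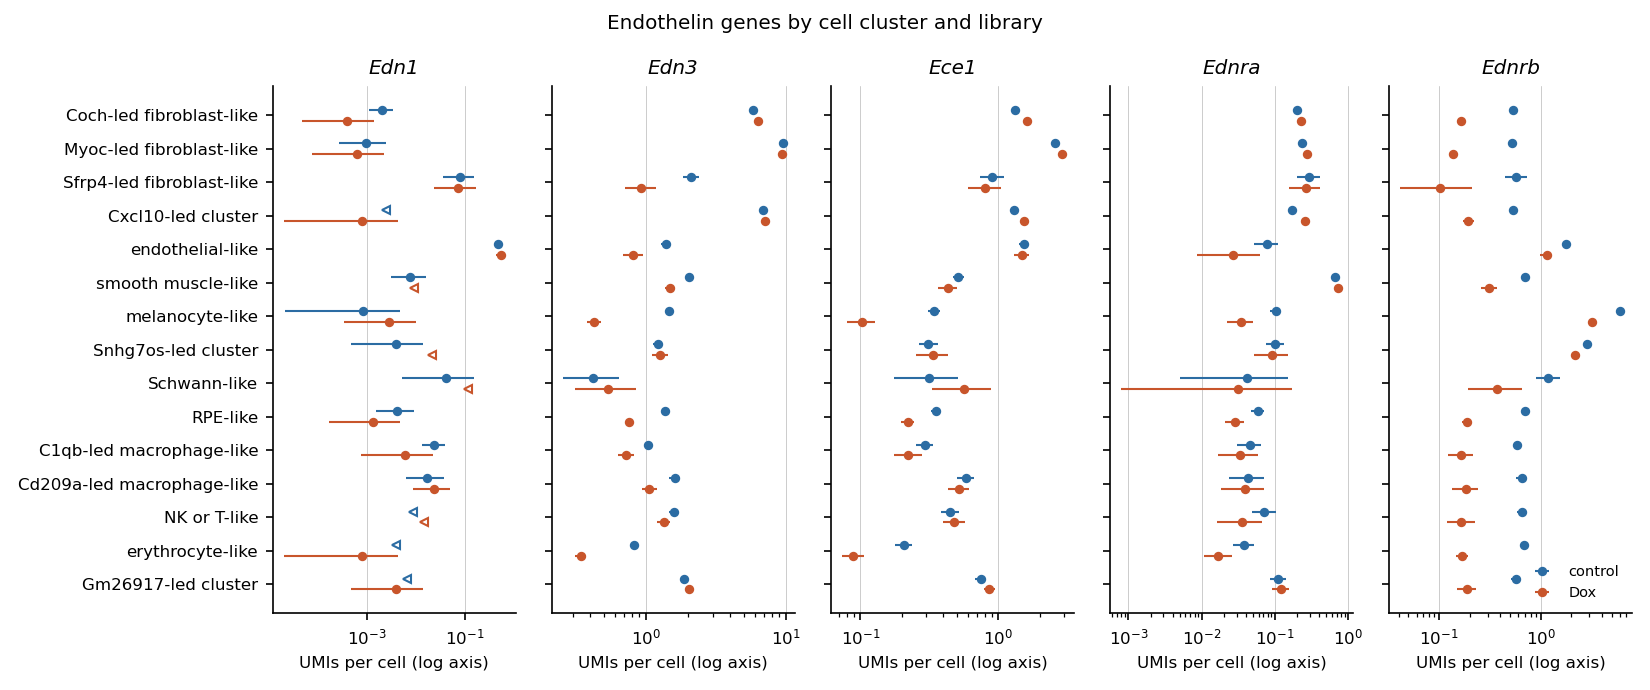
UMIs per cell (log axis) of the 5 genes in each of the 15 clusters, with control and Dox drawn as separate points and 95% exact Poisson intervals as bars. Edn1 peaked in endothelial-like cells, Edn3 and Ece1 in fibroblast-like cells, Ednra in smooth muscle-like cells and Ednrb in melanocyte-like cells in both libraries. Open triangles mark the upper limit of clusters with no Edn1 UMI.

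Edn1, the main vasoconstrictor of the family, was an endothelial gene in both libraries. Its level in endothelial-like cells was 0.477 UMIs per cell in the control (0.411 to 0.551) and 0.537 in Dox (0.438 to 0.653). As counts per 1000000 UMIs of the cell type (CPM), these levels were 108 and 127. Endothelial-like cells were 1.92% of control and 1.22% of Dox cells, yet they held 185 of the 251 control UMIs of Edn1 (73.7%) and 101 of the 126 Dox UMIs (80.2%). The gene was concentrated in few of them, since 17.5% of control and 17.0% of Dox endothelial-like cells had an Edn1 UMI. The highest endothelial-like cell had 13 UMIs in the control and 33 in Dox, so single cells weigh heavily on these means. Without that cell the level was 0.444 in the control and 0.364 in Dox.

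Outside the endothelium Edn1 was rare. The next highest level in the control was 0.0796 UMIs per cell in the Sfrp4-led fibroblast-like cluster, from 9 UMIs, and the same cluster had 0.0735 in Dox, from 5 UMIs. C1qb-led macrophage-like cells had 0.0234 and 0.00608 UMIs per cell, from 15 and 2 UMIs. Below the endothelial level, the intervals of neighbouring clusters overlapped, and no order among them could be read. In NK or T-like cells, which should lack Edn1, none of 429 control and none of 254 Dox cells had a UMI, which allows a share of up to 0.699% and 1.18% of cells, taken as 3 cells of the total. Free RNA of Edn1 was thus near 0 in these libraries, and the endothelial share lay far above it. RPE-like cells had 6 Edn1 UMIs in the control, 5 of them in 1 cell, and 2 in Dox.

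Between the conditions, the endothelial level of Edn1 did not stand apart beyond counting error. The log2 ratio of Dox over control was 0.24 (-0.13 to 0.59) in CPM. It was -0.22 where every cell had equal weight, so the sign depended on the weighting. In all fibroblast-like cells Edn1 was lower in Dox (-1.31, -2.58 to -0.18), but this rested on 27 and 9 UMIs among 11317 and 8495 cells.

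Edn3, the ligand that melanocyte precursors need, was a fibroblast gene and by far the most abundant of the 5. Myoc-led fibroblast-like cells had 9.61 UMIs per cell in the control (9.52 to 9.70) and 9.46 in Dox (9.36 to 9.57). The Cxcl10-led cluster, whose best marker match was fibroblast but which stayed unnamed, had 6.89 and 7.14. Coch-led fibroblast-like cells had 5.86 (5.80 to 5.92) and 6.35 (6.28 to 6.42). These clusters ranked in this order in both libraries, and their intervals did not overlap. An Edn3 UMI was seen in 96.1% and 95.1% of Myoc-led cells and in 93.9% and 94.4% of Coch-led cells, against 26.6% and 23.2% of NK or T-like cells. The median depths behind these shares were 6542.5 and 7009.5 UMIs in Myoc-led, 4081 and 4844 in Coch-led, and 3808 and 4033.5 in NK or T-like cells. In CPM, the Cxcl10-led cluster stood first, with 1508 against 1415 CPM of Myoc-led cells in the control and 1356 against 1345 in Dox, the latter pair not separable.

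Not every fibroblast-like cluster carried Edn3 at this level. The Sfrp4-led cluster had more fibroblast marker UMIs than any other, a sum of 217 per cell over the 12 markers in the control against 170 in Myoc-led cells. Its Edn3 level was 2.10 UMIs per cell in the control (1.84 to 2.38) and 0.926 in Dox (0.712 to 1.19), which was 1.32 times (1.13 to 1.53) and 0.688 times (0.517 to 0.902) that of NK or T-like cells at 1.59 and 1.35. Set against the fibroblast proteoglycan gene Dcn, it had 17.4 and 8.68 Edn3 UMIs per 1000 Dcn UMIs. The same quantity was 215 and 231 in Coch-led and 102 and 102 in Myoc-led cells, so the ratio of Edn3 to Dcn differed several-fold between fibroblast-like clusters in both libraries. Between the libraries its intervals overlapped in Myoc-led cells. They lay apart in Coch-led cells, where the levels were close (213 to 218 and 228 to 234), and in Sfrp4-led cells (15.3 to 19.8 and 6.66 to 11.1).

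In most other cell types the larger part of the Edn3 UMIs lay in the few cells that also held much Dcn. In the 6 types drawn, cells with over 10 Dcn UMIs held from 54.0% to 80.5% of the Edn3 UMIs of their type and library, except in Dox endothelial-like cells, where they held 43.1%. Of the NK or T-like control cells, 17.2% had over 10 Dcn UMIs and these held 80.5% of the Edn3 UMIs of the type, at 7.42 per cell. Their median doublet score was 0.487, against 0.0865 in cells with at most 2 Dcn UMIs. The latter cells had 0.156 Edn3 UMIs per cell in the control and 0.0739 in Dox. The same split in RPE-like cells gave 5.55 and 5.37 Edn3 UMIs per cell above 10 Dcn UMIs. At 2 or fewer, RPE-like cells had 0.224 (0.195 to 0.255) and 0.170 (0.148 to 0.195), against 0.116 to 0.205 and 0.0414 to 0.122 as the intervals of such NK or T-like cells, so that the levels overlapped in the control and stood apart in Dox, with RPE-like cells higher. Endothelial-like cells with few Dcn UMIs had 0.2 and 0.115, and melanocyte-like cells 0.183 and 0.140. Smooth muscle-like cells with few Dcn UMIs stood above these, at 0.515 (0.462 to 0.571) in the control and 0.568 (0.490 to 0.656) in Dox. Over all cells, RPE-like cells had 1.37 and 0.757 Edn3 UMIs per cell, which was 0.862 times (0.790 to 0.942) and 0.562 times (0.498 to 0.636) the NK or T-like level. The order of RPE-like and NK or T-like cells thus turned with the cells that were compared, and RPE-like cells were also the deeper ones.

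**Figure D2:**
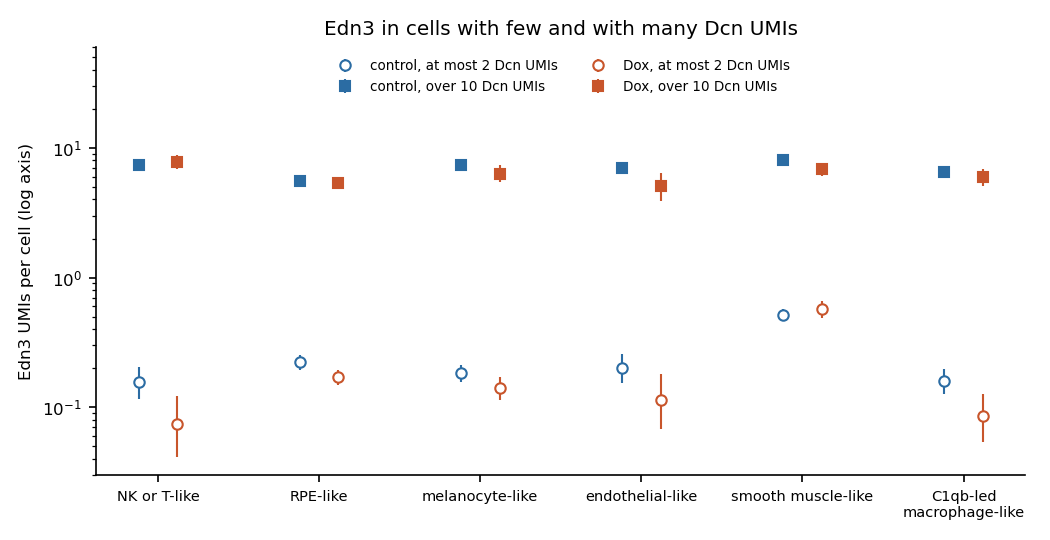
Edn3 UMIs per cell (log axis) in the cells of 6 types with at most 2 and with over 10 UMIs of the fibroblast gene Dcn, for control and Dox, with 95% exact Poisson intervals. All groups with over 10 Dcn UMIs had more than 5 Edn3 UMIs per cell, and with at most 2 only smooth muscle-like cells lay above 0.5.

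In fibroblast-like cells pooled over their clusters, the Edn3 difference between the libraries was small and its sign depended on the scale. The CPM was 1353 in the control against 1280 in Dox, with a log2 ratio of -0.080 (-0.095 to -0.065), whereas per cell the log2 ratio was 0.055 (0.040 to 0.070). The narrow intervals come from 81679 and 63690 UMIs and say nothing of the spread between mice. Lower levels in Dox were seen in types with far less Edn3 per cell than Coch-led and Myoc-led cells. Which cells the Edn3 UMIs of these types came from was not tested. The log2 ratios in CPM were -1.09 in RPE-like, -0.71 in endothelial-like, -0.51 in smooth muscle-like and -0.49 in macrophage-like cells. The share of cells with over 10 Dcn UMIs moved with these, from 19.1% to 9.44% of RPE-like and from 14.4% to 6.91% of endothelial-like cells. With the highest doublet scores left out, the log2 ratio was 0.22 in endothelial-like and 0.21 in macrophage-like cells, both intervals spanning 0, but -1.38 in RPE-like cells.

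Ece1, the converting enzyme, was highest where a ligand was also high. Myoc-led fibroblast-like cells had 2.58 UMIs per cell in the control (2.53 to 2.62) and 2.89 in Dox (2.83 to 2.95). Coch-led cells had 1.34 and 1.63, and the Cxcl10-led cluster 1.30 and 1.54. Endothelial-like cells had 1.53 (1.41 to 1.66) and 1.48 (1.31 to 1.67), above the latter clusters in the control and not separable from them in Dox. As CPM, the endothelial-like level of 348 in the control was not separable from the 379 of Myoc-led cells, while in Dox 352 lay below 411. All these levels were at least 2.91 times that of NK or T-like cells, which had 0.448 and 0.480 UMIs per cell. Endothelial-like cells with at most 2 Dcn UMIs still had 1.20 and 1.19 Ece1 UMIs per cell, against 0.0642 and 0.0640 in such NK or T-like cells.

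RPE-like and melanocyte-like cells had little Ece1. RPE-like cells had 0.354 and 0.221 UMIs per cell, or 20.1 and 10.97 CPM, the lowest CPM of all 15 clusters in both libraries. With at most 2 Dcn UMIs they had 0.0574 and 0.0517, close to such NK or T-like cells. Melanocyte-like cells had 0.344 and 0.102 per cell. In endothelial-like cells the log2 ratio of Dox over control was 0.02 (-0.19 to 0.22). In fibroblast-like cells it was 0.10 (0.07 to 0.13) in CPM and 0.24 (0.21 to 0.27) per cell.

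Ednra, the receptor that contracts vessel walls, was highest in smooth muscle-like cells. These had 0.658 UMIs per cell in the control (0.607 to 0.713) and 0.739 in Dox (0.657 to 0.828), or 124 and 133 CPM. An Ednra UMI was found in 43.6% of control and 46.7% of Dox smooth muscle-like cells, against 5.59% and 3.54% of NK or T-like cells. Fibroblast-like clusters formed a lower tier, with 0.233 and 0.274 UMIs per cell in Myoc-led, 0.2 and 0.228 in Coch-led and 0.292 and 0.265 in Sfrp4-led cells. In the Dox library the intervals of neighbours within this tier overlapped. Because fibroblast-like cells were so numerous, Coch-led cells alone gave 37.0% of control and 40.3% of Dox Ednra UMIs, more than the 16.1% and 10.1% from smooth muscle-like cells.

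The remaining clusters had little Ednra. RPE-like cells had 0.0585 and 0.0286 UMIs per cell, 0.809 times (0.531 to 1.26) and 0.807 times (0.388 to 1.88) the NK or T-like level. Endothelial-like cells had 0.0773 and 0.0266, from 30 and 5 UMIs. In control endothelial-like cells an Ednra UMI was present in 17.5% of those with an Edn3 UMI and in 2.24% of those without, and cells with Edn3 were also deeper. In smooth muscle-like cells the log2 ratio of Dox over control was 0.10 (-0.10 to 0.31), so no difference was detectable beyond counting error, and it was 0.42 with equal weight for each cell. The Cxcl10-led cluster had a higher Ednra level in Dox, with a log2 ratio of 0.36 (0.12 to 0.61) from 258 and 328 UMIs.

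Ednrb, the receptor for all endothelins, was highest in melanocyte-like cells, the type whose development depends on it. The level was 6.04 UMIs per cell in the control (5.90 to 6.18) and 3.24 in Dox (3.11 to 3.37). An Ednrb UMI was present in 84.4% and 56.7% of melanocyte-like cells, with a highest count of 50 and 40 in a single cell. The Snhg7os-led cluster, whose best match was melanocyte with 7 of 8 markers detected, had 2.89 (2.75 to 3.04) and 2.19 (1.98 to 2.42). Endothelial-like cells came next with 1.78 (1.65 to 1.92) and 1.14 (0.996 to 1.31). Schwann-like cells had 1.19 and 0.375, from 48 and 32 cells. These clusters stood in this order in both libraries. Their intervals were apart from each other and from all lower clusters, except that the Dox interval of Schwann-like cells, 0.194 to 0.655 from 12 UMIs, overlapped those of smooth muscle-like cells and of clusters below them.

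Elsewhere Ednrb lay in a narrower range per cell than in CPM. In the control, 9 clusters (Coch-led and Myoc-led fibroblast-like, RPE-like, NK or T-like, erythrocyte-like, both macrophage-like, Cxcl10-led and Gm26917-led) lay between 0.528 and 0.702 UMIs per cell. These 9 were grouped after their levels had been seen, so the width of their range depends on that choice. In Dox they lay between 0.137 and 0.193, and in each library the intervals of the lowest and the highest of them were apart. Smooth muscle-like cells had 0.700 in the control, within that range, but 0.309 (0.257 to 0.369) in Dox, above it. The small Sfrp4-led cluster had 0.575 and 0.103, the latter from 7 UMIs. The median depth of the 9 clusters ran from 794 to 16800.5 UMIs per cell in the control and from 660.5 to 19705.5 in Dox. Divided by depth, the narrow range of levels per cell became a wide range of CPM, from 39.8 in RPE-like to 488 in erythrocyte-like cells in the control and from 9.36 to 163 in Dox. The CPM of Ednrb in these clusters therefore ordered them largely by depth.

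**Figure D3:**
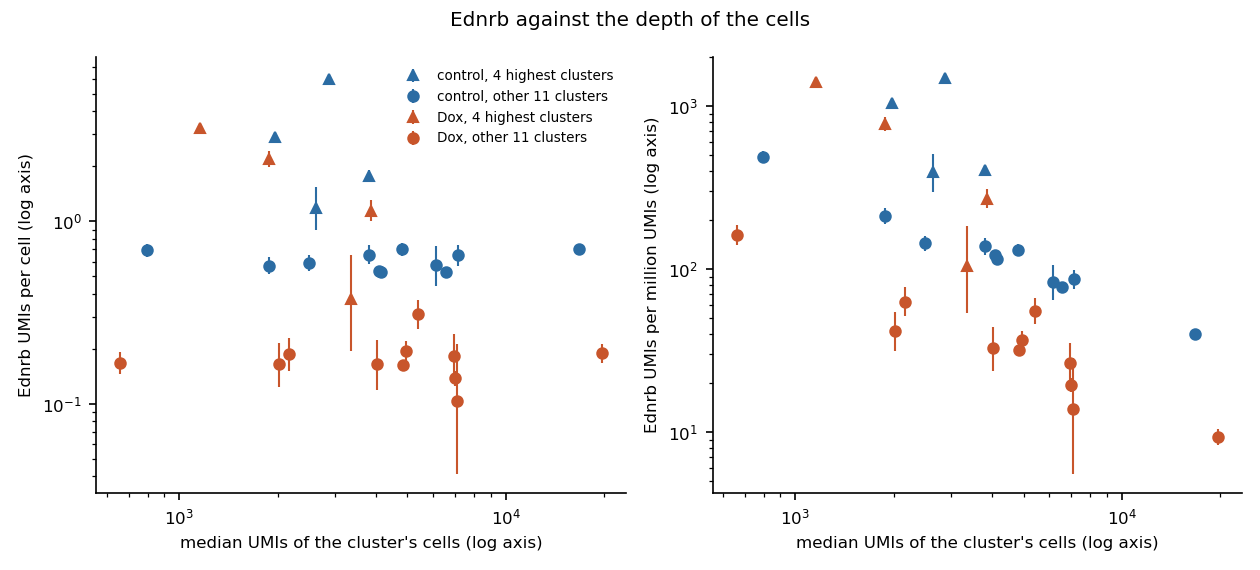
Ednrb per cluster against the median UMIs per cell of the cluster (log axes), as UMIs per cell in the left panel and as CPM in the right, for control and Dox, with 95% exact Poisson intervals. Triangles mark the 4 highest clusters (melanocyte-like, Snhg7os-led, endothelial-like and Schwann-like), and among the other 11 CPM declined with depth while UMIs per cell did not. In Dox the smooth muscle-like point, at 0.309 UMIs per cell, lay above the rest of these.

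The RPE-like level of Ednrb did not exceed that of cells that should lack it beyond counting error. RPE-like cells had 0.702 UMIs per cell in the control (0.660 to 0.747) and 0.189 in Dox (0.168 to 0.212). NK or T-like cells, with a median depth more than 4 times lower, had 0.655 (0.581 to 0.736) and 0.165 (0.119 to 0.224). The ratio of RPE-like to NK or T-like was 1.07 (0.939 to 1.23) in the control and 1.14 (0.824 to 1.62) in Dox. The share of cells with an Ednrb UMI was 38.9% and 14.7% in RPE-like cells, whose median depth was 16800.5 and 19705.5 UMIs, against 41.0% and 14.2% of NK or T-like cells at 3808 and 4033.5. By the measure used here, this level was not separable from the NK or T-like level and cannot be taken as Ednrb of the RPE. Whether RPE cells add Ednrb of their own was not tested. With every cell thinned to 500 UMIs, the shares were 2.92% and 0.746% in RPE-like and 7.51% and 2.01% in NK or T-like cells.

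Part of the control RPE-like UMIs sat in few cells rich in Pmel, a melanosome gene used here as a melanocyte marker. The study also lists Pmel among the markers of an RPE cluster, so it does not mark melanocytes alone. The 94 control cells with over 10 Pmel UMIs, 6.46% of the RPE-like cells, had 3.67 Ednrb UMIs per cell and 33.8% of the Ednrb UMIs of the type. Their median doublet score was 0.309, against 0.123 in the others. In Dox 15 cells had over 10 Pmel UMIs, with 30 Ednrb UMIs among them. The other RPE-like cells had 0.497 (0.460 to 0.536) in the control and 0.171 (0.150 to 0.193) in Dox. The NK or T-like cells below the same limit had 0.540 (0.471 to 0.616) and 0.150 (0.106 to 0.206), again overlapping.

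A further clustering of the RPE-like cells, from which the genes of interest and those the study compares between conditions were held out, gave subclusters that were matched to its RPE clusters by marker genes. Ednrb was lower per cell in Dox than in the control in each of these subclusters, though not always beyond counting error. In the control it differed among them, with the intervals of cluster 2-like and cluster 4-like cells apart, while in Dox these overlapped. Cluster 1-like cells, led by Mt3, Rd3l and Ddc, had 0.657 UMIs per cell in the control and 0.176 in Dox. Cluster 2-like cells, led by Mgp, Apod and Dcn, had the highest control level, 0.862 (0.760 to 0.975), and 0.238 (0.171 to 0.323) in Dox, and the unnamed Gm42418-led subcluster had 0.756 and 0.133. Cluster 4-like cells, led by Serpina3n and Timp1, had 0.549 (0.400 to 0.734) and 0.235 (0.170 to 0.317), and cluster 3-like cells 0.435 and 0.254. The cluster 3-like levels came from 30 UMIs in 69 control and 30 in 118 Dox cells, and their counting intervals overlapped. Against NK or T-like cells, the ratio in cluster 2-like cells was 1.32 (1.11 to 1.56) in the control and 1.44 (0.914 to 2.27) in Dox. In cluster 4-like cells it was 0.838 (0.597 to 1.15) and 1.42 (0.907 to 2.23), with intervals spanning 1, and in cluster 3-like cells 0.664 (0.440 to 0.969) and 1.54 (0.929 to 2.52). Cluster 5-like cells numbered only 16 and 5 and were not compared or drawn.

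Edn3 was uneven among the RPE-like subclusters. Cluster 2-like cells had 5.17 UMIs per cell in the control (4.91 to 5.43) and 4.85 in Dox (4.53 to 5.19), and 91.6% and 91.9% of them had an Edn3 UMI. Ece1 was also highest there, at 1.35 and 1.41 UMIs per cell, against 0.0604 and 0.0471 in cluster 1-like cells. The median doublet score of cluster 2-like cells was 0.385 in the control and 0.403 in Dox, and that of cluster 1-like cells 0.0880 and 0.0798. Whether cluster 2-like droplets held a fibroblast beside an RPE cell was not tested. Cluster 1-like cells had 0.266 (0.230 to 0.307) and 0.148 (0.122 to 0.177) Edn3 UMIs per cell. This was below the level of all NK or T-like cells but above the 0.156 and 0.0739 of NK or T-like cells with at most 2 Dcn UMIs.

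**Figure D4:**
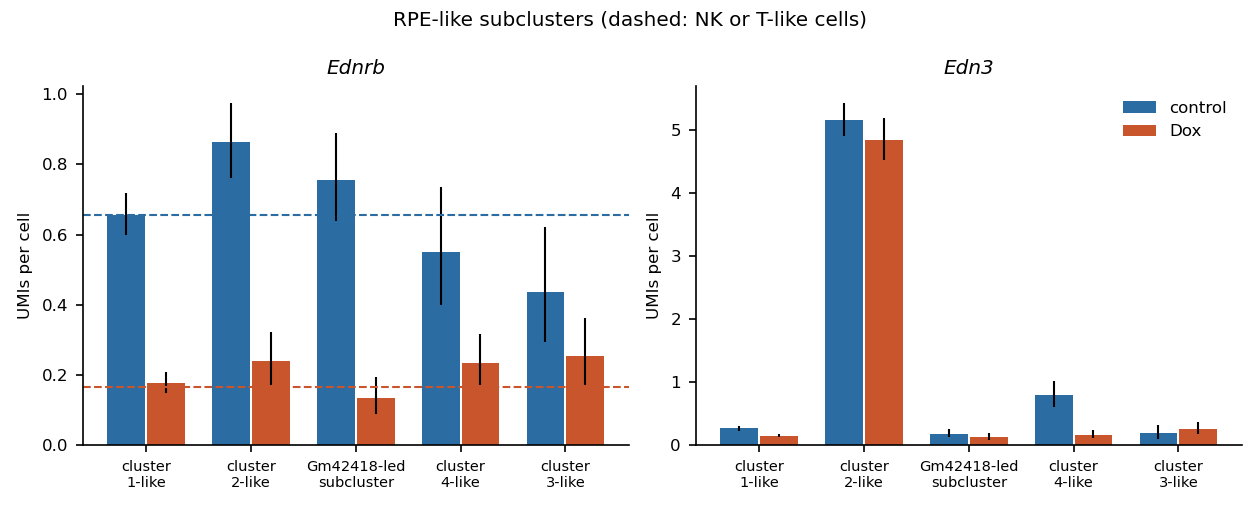
UMIs per cell of Ednrb and Edn3 in the RPE-like subclusters, for control and Dox, with 95% exact Poisson intervals as black lines and, for Ednrb, the NK or T-like level of each library as dashed lines. The dashed lines carry a counting error of their own, and with it the ratio of Ednrb to the NK or T-like level was above 1 beyond counting error only in control cluster 2-like cells, while Edn3 was highest in cluster 2-like cells.

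Between the libraries, Ednrb was lower in Dox in all 15 clusters. The log2 ratio per cell ran from -2.48 to -0.40 with a median of -1.72, and its counting interval lay below 0 in 15 of 15. Edn3 was lower in 10 of 15 clusters and Ece1 in 8, so this was not a property of all members. The clusters share the 2 libraries and any free RNA in them, and are not replicates. The clusters with the most Ednrb per cell were also a smaller part of the Dox library. Melanocyte-like cells were 6.02% of control and 4.69% of Dox cells, and the Snhg7os-led cluster 2.61% and 1.12%. The part of these shares in the Ednrb difference was not tested. The smallest difference in CPM was in melanocyte-like cells, where Ednrb stood at 1479 CPM in the control against 1417 in Dox, with a log2 ratio of -0.062 (-0.13 to 0.0051), although it was -0.90 (-0.97 to -0.83) per cell. The median depth of these cells was 2871 UMIs in the control and 1157 in Dox. Within each library the deeper cells of this type had 10.3 and 5.95 Ednrb UMIs per cell and the shallower ones 1.79 and 0.541, when split at the median depth. Fewer molecules per cell and shallower cells cannot be told apart here.

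Some other genes of pigment and glial cells shared this pattern. Pmel was lower in Dox in 15 of 15 clusters with a median log2 ratio per cell of -1.91, the melanocyte antigen gene Mlana in 15 with -1.67, and the calcium-binding protein gene S100b in 15 with -1.13. Of the further genes that the study names beside Ednrb, Selenop was lower in 15 clusters (-0.64) and Spp1 in 14 (-1.15). Serpina3n went the other way, higher in all 15 with a median of 2.16. The study picked out Pmel, S100b, Selenop, Spp1 and Serpina3n, with Ednrb, for their changes across RPE clusters of these same libraries. The directions of these genes are thus no independent support for the Ednrb pattern. Pmel and Mlana belong to the 8 melanocyte markers, which did not all follow in every cluster. Lower per cell in Dox were 8 of 8 in melanocyte-like, 6 in RPE-like and 5 in Gm26917-led cells. The median log2 ratios of the 8 were -0.94, -0.32 and -0.93 there. The 8 melanocyte markers together gave 14.2 UMIs per NK or T-like cell in the control and 3.34 in Dox, with 7 of 8 detected and Mc1r at 0 in both. In fibroblast-like and immune clusters this sum ran from 9.59 to 14.2 in the control and from 2.83 to 3.90 in Dox. The part of these UMIs in the Ednrb difference was not tested.

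**Figure D5:**
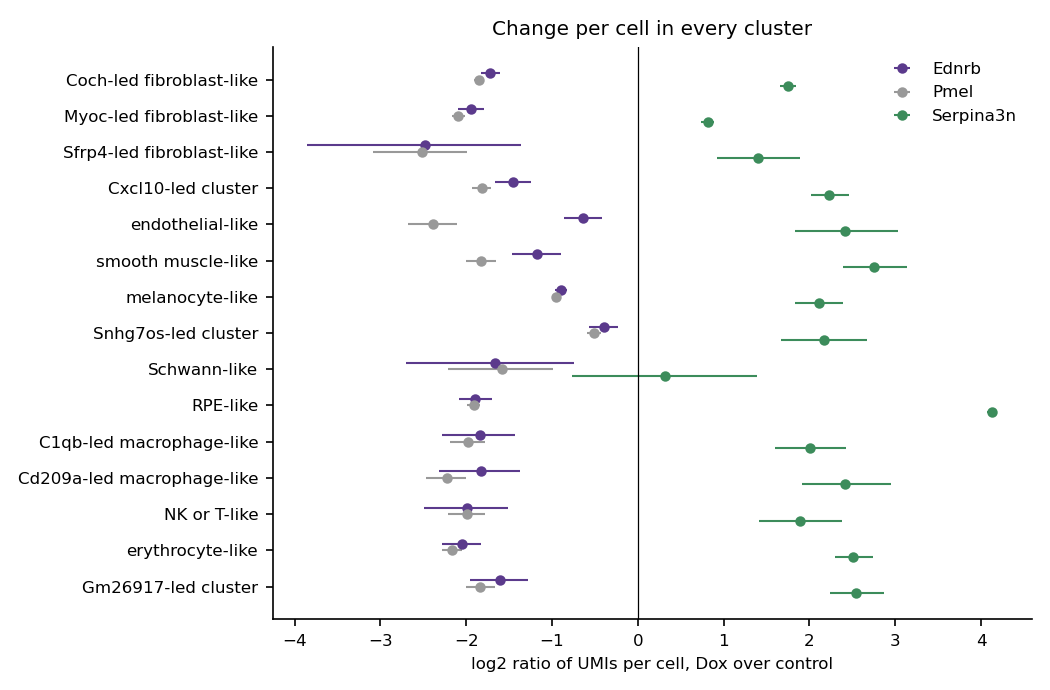
Log2 ratio of Dox over control in UMIs per cell for Ednrb, Pmel and Serpina3n in each of the 15 clusters, with 95% counting intervals as bars. Ednrb and Pmel lay below 0 in all 15 clusters, and Serpina3n lay above 0 in all 15.

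Set against Pmel, Ednrb differed between cell types. There were 207 Ednrb UMIs per 1000 Pmel UMIs in NK or T-like cells in the control and 208 in Dox, 243 and 267 in Coch-led fibroblast-like cells, and 245 and 316 in the Cxcl10-led cluster. Melanocyte-like cells had 128 and 133, but the Snhg7os-led cluster, whose best match was also melanocyte, had 230 and 248. RPE-like cells had 156 (146 to 166) and 158 (139 to 179), in the control apart from NK or T-like cells (181 to 235). Endothelial-like cells had the highest values, 580 (528 to 638) and 1955 (1546 to 2482). Schwann-like cells had 438 (315 to 603) and 414 (192 to 836), overlapping the endothelial-like interval in the control but not in Dox. Endothelial-like cells with at most 10 Pmel UMIs still had 1.56 and 1.10 Ednrb UMIs per cell. Smooth muscle-like cells had 255 and 399 per 1000 Pmel UMIs, and their Ednrb level was 1.07 times (0.927 to 1.23) that of NK or T-like cells in the control and 1.87 times (1.31 to 2.72) in Dox.

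Ligand and receptor UMIs met in the endothelial-like cells, which had Edn1, Ece1 and Ednrb above background. In the control, 31 of 68 endothelial-like cells with an Edn1 UMI also had an Ednrb UMI (45.6%), against 64.7% of those without Edn1. In Dox it was 10 of 32 (31.3%), against 48.1%. The median depth of control cells with and without Edn1 was 3853.5 and 3784 UMIs, so depth was alike. Of NK or T-like cells, at median depths of 3808 and 4033.5 UMIs, 59.0% in the control and 85.8% in Dox had no Ednrb UMI. Their control share with an Ednrb UMI was thus near that of endothelial-like cells with Edn1. The part of free RNA in these shared UMIs was not tested. An Ece1 UMI was found in 63.2% of control endothelial-like cells with Edn1 and in 62.5% of those without. Other pairs had their highest levels in different cell types. Edn3 was highest in fibroblast-like and Ednrb in melanocyte-like cells, Edn1 in endothelial-like and Ednra in smooth muscle-like cells. Edn3 and Ednra also met in fibroblast-like cells. Of Coch-led cells with an Ednra UMI, 1111 of 1158 in the control and 962 of 983 in Dox had an Edn3 UMI. Most Coch-led cells had an Edn3 UMI in any case, 6462 of 6880 and 4855 of 5143.

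The ratios of the members were read against all genes of each cell type, with cells grouped as at the lower clustering resolution and genes kept if they had at least 20 UMIs over both libraries. A difference was counted at 1.5-fold or more in CPM, a rule of size. In fibroblast-like cells 2 of 5 members were lower in Dox, Edn1 and Ednrb (-1.96), where 5.29% of all genes were lower and 2.67% higher. In melanocyte-like cells 1 of 4 was lower, Ednrb (-0.66, -0.73 to -0.60), against 9.83% lower and 8.59% higher. At this resolution the melanocyte-like cluster also took in erythrocyte-like droplets, and 44.5% of its cells kept the name at the finer resolution. In melanocyte-like cells of the finer one, Ednrb had a log2 ratio of -0.062 in CPM and was not past 1.5-fold. Per cell, Edn3, Ece1 and Ednra had 1.47, 0.344 and 0.104 UMIs there in the control and 0.426, 0.102 and 0.0346 in Dox. The Dox cells were also shallower, at a median of 1157 UMIs against 2871. In RPE-like cells 4 of 4 were lower, Ednrb (-2.05, -2.25 to -1.85), Ednra (-1.29), Edn3 (-1.09) and Ece1 (-0.89), against 9.24% lower and 2.74% higher. Over all cells, none of these 4 lay above the NK or T-like level per cell beyond counting error.

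In macrophage-like cells 2 of 5 were lower, Edn1 from 21 and 8 UMIs and Ednrb (-1.81), where 8.1% of all genes were lower and 4.85% higher. In smooth muscle-like cells 1 of 4 was lower, Ednrb (-1.24), where 6.93% of genes were lower and 5.64% higher. In NK or T-like cells, the reference for free RNA, 2 of 4 were lower, against 10.7% lower and 6.22% higher. These were Ednra, from 31 and 9 UMIs, and Ednrb (-2.08). In endothelial-like cells 2 of 5 were lower, Edn3 and Ednra, against 10.7% lower and 6.95% higher, and Ednrb stood just inside the limit at -0.57 (-0.80 to -0.35). No member was higher in Dox by 1.5-fold in any of these types. Edn1, Edn3, Ece1 and Ednra each differed by less than 1.5-fold in the type where it was highest. For Ednrb in melanocyte-like cells this held at the finer resolution but not at the lower one.

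The 38 other genes of the pathway, chosen for their roles, were counted by the same rule and are given beside the shares of all genes. In fibroblast-like cells 1 of 35 with enough UMIs was lower, the pigment cell regulator Mitf (-0.95), and none was higher, against 5.29% and 2.67% of all genes. In melanocyte-like cells 3 of 30 were lower and 2 higher, against 9.83% and 8.59%. Those higher were the natriuretic peptide receptor gene Npr1 (0.72) and the convertase gene Pcsk7 (0.72). Those lower were the angiotensin receptor gene Agtr1a (-1.57, from 23 and 4 UMIs), the convertase gene Pcsk6 (-0.82, from 24 and 7) and the G protein damper Rgs2 (-0.70). These calls changed with the resolution. In melanocyte-like cells of the finer one, 5 of 29 were lower and 1 higher, against 12% and 5.79% of all genes. Agtr1a, Rgs2 and Pcsk7 were still among them, but Npr1 and Pcsk6 were not. In RPE-like cells 5 of 31 were lower, among them Agtr1a and Rgs2, where 9.24% of all genes were lower. In endothelial-like cells 2 of 27 were lower and 2 higher, against 10.7% and 6.95%, with Rgs2 (0.79) and Npr1 (0.66) higher and Mitf (-1.23) and Pcsk7 (-0.67) lower. In smooth muscle-like cells 1 of 30 was lower, the arrestin gene Arrb1, and 1 higher, Npr1, against 6.93% and 5.64%. In macrophage-like cells 4 of 31 were lower, against 8.1%, and in NK or T-like cells 2 of 27 were lower and 1 higher, against 10.7% and 6.22%. The medians of the list ran from -0.12 in RPE-like to 0.06 in endothelial-like cells, with medians of all genes from -0.06 to 0.02.

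The G protein genes that couple the receptors were present where the receptors were, but not only in the types with the highest receptor levels. The Gs subunit gene Gnas was at 1535 and 1402 CPM in smooth muscle-like cells and at 2441 and 2311 CPM in fibroblast-like cells. Gna11, of the class that releases calcium, was at 166 and 217 CPM in smooth muscle-like cells, with a log2 ratio of 0.38 (0.22 to 0.55). The Gi subunit gene Gnai2 was at 906 and 1140 CPM in endothelial-like cells, a log2 ratio of 0.33 (0.21 to 0.45). Rgs4 was at 77.8 and 76.7 CPM in smooth muscle-like cells, and Nos3, which makes nitric oxide downstream of EDNRB, at 87.1 and 99.6 CPM in endothelial-like cells. Mitf, which acts with Ednrb in pigment cells, was at 295 and 208 CPM in melanocyte-like cells (-0.50, -0.63 to -0.37). These Mitf values are of the lower clustering resolution, where the melanocyte-like cluster also took in erythrocyte-like droplets. The part of that mix in the Mitf difference was not tested. Edn2 was nearly undetected, with 7 UMIs in RPE-like cells of each library. The gene of another converting enzyme, Ece2, had 84 and 68 UMIs in fibroblast-like cells and 5 or fewer in each other named type.

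The genes whose levels were most like each member were sought over 14 groups, 7 named cell types in both libraries, among 12193 genes, by Pearson's r of log2(CPM + 10). The groups share libraries, so r is a description. Edn1 was most like Vwf, Selp, Flt1, Rasip1 and Sox18, all with r of 0.996 or more, and Flt1 is one of the endothelial markers used to name the type. Edn3 was most like Serpine2, Col1a2, Col3a1, Colec12 and Pgf, with r of 0.994 to 0.990, of which Col1a2 and Col3a1 are fibroblast markers. Ece1, shared by 2 sources, was most like Tcf4, Ltbp4, Itm2a, Ptn and Plscr3 (0.987 to 0.975). Ednra was most like Foxc2, Tpm1, Tfap2b, Prkg1 and Ndufa4l2 (0.985 to 0.979). Ednrb was most like Kif3c, Pogk, Adm, Eogt and Mapt, with lower r of 0.947 to 0.925. The types are those of the lower clustering resolution, where the melanocyte-like cluster also took in erythrocyte-like droplets. In clusters with little Ednrb its CPM also went largely with depth. The part of depth and of this mix in r was not tested.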

How the data were processed

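The deposited matrices hold UMI counts per gene and cell barcode, which the authors made with Cell Ranger 4.0.0, per the file headers, on mm10, per the labels. The filter on cells followed the study's methods: more than 500 UMIs, between 200 and 6000 genes, a ratio of log10 genes to log10 UMIs above 0.8, and less than 0.2 of UMIs from mitochondrial genes. They were clustered with Seurat 5.3.0 (R 4.3.3, sctransform 0.4.2): SCTransform per library, integration on 2978 features left of 3000 after the 5 members and 38 pathway genes were taken out (43 genes), 40 principal components and resolution 0.1. Because clusters at 0.1 joined cell types, levels are described at resolution 0.2 and ratios of a whole type at 0.1. RPE-like cells were clustered again on 2804 features, also without 232 genes that the study compares, at resolution 0.1. A cluster was named only from fixed markers, with at least 3 detected and 1 or more among its leading 10 genes (2 or more for RPE-like subclusters). At resolution 0.1 a cluster was also left unnamed, as the Gfra3-led one was, where under 10% of its cells had the same name at 0.2. Clusters were rebuilt, so names may differ from the study's.

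UMIs were summed per cluster and library with Python 3.11.15, numpy 2.4.6, pandas 2.3.3 and scipy 1.17.1, and given per cell and as CPM. Levels have exact Poisson, shares Clopper-Pearson (a count of 0 has a limit of 3 counts of the total), and ratios exact conditional binomial intervals at 95%. Levels were compared between cell types per cell against NK or T-like cells, which should lack the members, since free RNA adds a like number of UMIs to each droplet. Thinned shares are the values expected at 500 UMIs per cell. Scrublet (scanpy 1.11.5) gave each cell a doublet score and marked 14.9% and 15.1% of cells. They were kept in the main values, and an alternative left out the highest 3290 and 1931 scores. The total was 117731270 UMIs in the control and 103997248 in the Dox library. The script for ratios was tested on simulated counts. Sequences and gene positions were read from GENCODE vM21, and figures were drawn with matplotlib 3.10.9.

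The members and lists were chosen with earlier results of these data known. The text names the 5 members, of the pathway list the most abundant genes in the type where each member is highest and those past 1.5-fold there, the 5 genes most like each member (at least 500 UMIs), the genes Pmel, S100b, Selenop, Spp1 and Serpina3n, and the cell type markers. Mlana and Dcn belong to the markers. Furthermore Edn2, Ece2, Rgs4 and Nos3 of the list were named after their values were seen, as were the leading genes of clusters. The 9 clusters read together for Ednrb were also chosen after their values were seen. Alternatives were the resolution, no integration, the mitochondrial limit, doublets, the weighting of cells, the level per cell and a limit of 100 UMIs.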

Additional observations from a re-analysis of the deposited data

Results flagged for a closer look

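Ece1 stood on opposite sides of 0 in different cell types under the same comparison of Dox with control. Its log2 ratio in CPM was 0.10 (0.07 to 0.13) in fibroblast-like cells, but -0.43 (-0.68 to -0.19) in melanocyte-like, -0.89 (-1.10 to -0.68) in RPE-like and -0.32 (-0.58 to -0.06) in smooth muscle-like cells. With 1 library per condition, the difference between the cell types was not tested. These ratios are of the lower clustering resolution, while the levels and shares that follow are of the finer one. The melanocyte-like cells differ between them, at 2115 control and 2034 Dox cells in the lower and 1215 and 723 in the finer. The types with the lower Ece1 in Dox had 0.512 UMIs per cell or fewer in the control. Their share of cells with over 10 Dcn UMIs was also lower in Dox, at 4.01% against 15.5% of melanocyte-like, 9.44% against 19.1% of RPE-like and 11.8% against 16.9% of smooth muscle-like cells. This was not particular to them. The share was 13.8% against 17.2% in NK or T-like cells, whose Ece1 was 0.480 UMIs per cell in Dox and 0.448 in the control. In endothelial-like cells it was 6.91% against 14.4%, with an Ece1 log2 ratio of 0.02. The part of this share in the Ece1 ratios was not tested.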

How the results depend on the processing

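No paired analysis was possible because each condition is 1 library. Of 91 alternative values for the main comparisons, 62 moved by less than their counting interval, or by under 1.5 times for a share of genes. A further 27 moved farther, and 2 were counted as reversed. The latter do not hold every change of sign. Edn3 in fibroblast-like and Edn1 in endothelial-like cells each kept their sign in 8 of 10 alternatives, and Ece1 in endothelial-like cells in 6 of 10. Of 178 for the other ratios, 151 stayed within these limits, and the rest of these include 4 reversals.

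Ednrb in RPE-like cells was lower in Dox under all 10 alternatives (log2 ratio -2.14 to -0.75), and -0.75 was reached after the NK or T-like level per cell was subtracted, which leaves little signal on either side. Ednrb in melanocyte-like cells was lower under all 11 but ran widely. It was -0.86 without integration, -0.062 at resolution 0.2, -1.29 as the mean of the cells' own CPM and -1.29 with thinned cells (equal by construction), -1.56 per cell, -1.48 per cell less the NK or T-like level, and -0.90 per cell at resolution 0.2, which was added after the data had been seen. Edn3 in fibroblast-like cells was -0.12 as the mean of own CPM and with thinned cells, but reversed to 0.055 per cell and 0.13 per cell less the NK or T-like level. Edn1 in endothelial-like cells was -0.22 and Ednra in smooth muscle-like cells 0.42 as the mean of own CPM and with thinned cells. Ece1 in endothelial-like cells, at 0.017 in the main values, kept its sign in 6 of 10 alternatives, which ran from -0.11 to 0.091. With a minimum of 100 UMIs in place of 20, the share of genes lower by 1.5-fold was 2.37% in fibroblast-like, 5.95% in melanocyte-like, 4.57% in RPE-like, 3.13% in macrophage-like, 2.44% in smooth muscle-like, 3.94% in NK or T-like and 3.57% in endothelial-like cells. The share higher was 0.813%, 6.22%, 1.13%, 1.36%, 1.98%, 2.07% and 2.33% in the same types in this order. Only in melanocyte-like cells did it pass the share lower.

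Among the other ratios, leaving out the highest doublet scores reversed Edn3 in macrophage-like (0.21) and endothelial-like cells (0.22) and Ednra in NK or T-like cells (0.18), and subtracting the NK or T-like level reversed Ednrb in smooth muscle-like cells (1.68). The causes of these moves were not tested. At the study's RPE resolution of 0.05 no subcluster matched cluster 1. The sparse members limit what could be seen, most of all Edn1 with 251 and 126 UMIs, and with 5 mice pooled per library the spread between mice is unknown.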

Other observations

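Depth within a type sorted the members unevenly. When endothelial-like cells were split at their median depth, Edn1 was at 0.448 UMIs per cell in the shallower and 0.505 in the deeper control cells, but at 0.202 and 0.872 in Dox. The Dox cell with 33 Edn1 UMIs was among the deeper ones, which had 0.527 without it. Ece1 followed depth in both libraries, at 0.753 and 2.31 in the control and 0.691 and 2.28 in Dox. In NK or T-like cells, Edn3 was at 0.112 in the shallower and 3.07 in the deeper control cells and at 0.0315 and 2.66 in Dox. Cd209a-led macrophage-like cells had 0.0171 and 0.0233 Edn1 UMIs per cell, and their summed level of the 9 endothelial markers was 0.329 UMIs per cell in the control and 1.36 in Dox, all 9 detected in both.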
